A study of Mus musculus with 9 samples.

Results

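The genes of the transforming growth factor beta (TGF-beta) pathway described here were followed across monocytes/macrophages of the blood and the poststroke brain. These 10 genes were taken by name, as the ligand *Tgfb1*, the latent-ligand anchor *Lrrc33* (listed as *Nrros* in the annotation), the receptors *Tgfbr1* and *Tgfbr2*, the signal transducers *Smad2*, *Smad3* and *Smad4*, and the inhibitors *Smad7*, *Ski* and *Skil*. All 10 were found among the 53801 genes of the count data, and all 10 passed the filter on low counts in every comparison.

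All mice were male C57BL/6J, 9 weeks old. The stroke groups had the distal middle cerebral artery and the common carotid artery permanently occluded on the left side (dMCAO) and were sampled at 5 days, whereas the sham blood group had a sham operation and no sampling day is named for it. Each group held 3 libraries. Each stroke brain library was pooled from the ipsilesional hemispheres of 5 mice, and each stroke blood or sham blood library came from 1 mouse. Cells were sorted as CD11c-, Ly6G-, CD11b+ and CD45high, a gate that can hold brain-resident as well as infiltrating macrophages. Blood cells were separated on Ficoll, while brain cells were released by enzymes with heating and separated on Percoll, so tissue and preparation cannot be told apart. No brain library from sham mice was analysed here. A sample-sheet number in the names of the deposited data is shared by sham blood replicate 1 and brain replicate 3, so the libraries may come from more than 1 sequencing run. No run is named in the labels, so none was modelled, and a difference between runs cannot be told apart from the groups.

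TGF-beta is secreted in a latent form and must be freed before it can act. The freed ligand brings the type II receptor TGFBR2 together with the type I receptor TGFBR1, which phosphorylates SMAD2 and SMAD3. These join SMAD4 and enter the nucleus to regulate transcription, where SKI and SKIL restrain them, while SMAD7 blocks the activated receptor. The pathway is known for restraining inflammation and for maintaining microglia, and LRRC33 anchors latent TGF-beta1 on microglia and other macrophages.

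The bases just upstream of the start are shown for *Tgfbr1*, *Tgfbr2* and *Ski*, which were each called higher in the brain, and for *Lrrc33*, for which no change was detected. The *Ski* window reaches 57 bases into the gene as GENCODE M21 has it. All are the 250 bases before the RefSeq start on GRCm38.p6, read 5′ to 3′ on the strand of the gene, at chr4:47352972-47353221 (plus strand) for *Tgfbr1*, chr9:116175364-116175613 (minus strand) for *Tgfbr2*, chr4:155222536-155222785 (minus strand) for *Ski* and chr16:32165595-32165844 (minus strand) for *Lrrc33*. Capitals mark CAGAC, the core of the SMAD-binding element, and GGCGC, a GC-rich motif that SMADs also bind, on either strand.
Tgfbr1: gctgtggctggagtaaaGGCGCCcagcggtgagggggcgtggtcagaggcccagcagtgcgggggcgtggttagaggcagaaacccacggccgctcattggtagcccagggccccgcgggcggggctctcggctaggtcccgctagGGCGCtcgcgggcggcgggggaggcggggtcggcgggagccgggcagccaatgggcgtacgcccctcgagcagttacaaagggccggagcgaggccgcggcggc
Tgfbr2: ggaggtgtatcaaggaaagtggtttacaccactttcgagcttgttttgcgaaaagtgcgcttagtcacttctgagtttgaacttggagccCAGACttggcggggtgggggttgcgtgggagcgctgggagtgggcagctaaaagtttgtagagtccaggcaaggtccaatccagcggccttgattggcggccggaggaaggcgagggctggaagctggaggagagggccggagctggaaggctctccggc
Ski: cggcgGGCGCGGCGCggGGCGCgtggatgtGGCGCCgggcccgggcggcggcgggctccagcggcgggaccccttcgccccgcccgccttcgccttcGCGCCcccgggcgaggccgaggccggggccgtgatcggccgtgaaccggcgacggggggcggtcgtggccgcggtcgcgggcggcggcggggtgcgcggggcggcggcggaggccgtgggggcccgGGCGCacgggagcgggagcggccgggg
Lrrc33: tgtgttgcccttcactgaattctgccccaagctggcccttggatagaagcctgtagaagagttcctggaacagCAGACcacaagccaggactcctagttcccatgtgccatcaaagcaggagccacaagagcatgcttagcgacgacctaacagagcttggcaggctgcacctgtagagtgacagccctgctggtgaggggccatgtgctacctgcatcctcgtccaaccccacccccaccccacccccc

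Of the 10 genes, 6 had a RefSeq entry used here (*Tgfb1*, *Tgfbr1*, *Tgfbr2*, *Smad3*, *Ski* and *Lrrc33*), and 3 motifs were searched in them on both strands. *Skil* had no entry, and the chromosome 18 genes *Smad2*, *Smad4* and *Smad7* were left out of the search. CAGAC was present in 2 of the 6, once each in *Tgfbr2* and *Lrrc33*, and in 42.2% of all 32851 promoters. GGCGC was present in 3 of the 6, with 1 match in *Tgfb1*, 3 in *Tgfbr1* and 7 in *Ski*, and in 32.0% of all promoters. GGCGCC holds overlapping matches to GGCGC on both strands, and GC content of the windows was 74.8% for *Tgfbr1*, 58.4% for *Tgfbr2* and 87.6% for *Ski*. TGANTCA, the AP-1 motif, was present in 0 of the 6 and in 6.75% of all promoters. These matches describe the sequence and are not evidence of binding.

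Levels are given as counts per 1000000 counts of the library (CPM). Total counts ranged from 18475118 to 22623578 per library. Each comparison used the quasi-likelihood test of edgeR with Benjamini-Hochberg adjustment over all genes tested, and a gene was called at an adjusted p below 0.05. In bulk RNA, fewer cells of a type and less RNA per cell cannot be told apart.

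In the brain, 6 of the 10 genes were higher than in stroke blood, namely *Skil*, *Smad7*, *Ski*, *Tgfbr1*, *Tgfbr2* and *Smad2*, and 0 were lower. The count was 1 without stroke blood replicate 1, 3 without stroke blood replicate 2 or 3, 2 without brain replicate 3 and 4 without brain replicate 2. Without brain replicate 1 it was 3, of which 2 were higher and *Tgfb1* was lower. The share of all genes called in these smaller fits was not computed. A loss of calls across all genes therefore cannot be told apart from one particular to the 10. Across all 13189 genes tested, 17.5% were called higher and 13.1% lower. All 3 inhibitors and both receptors were among the genes that rose, with log2 fold changes from 0.75 to 3.35. With an absolute log2 fold change above 1 required as well, the study's threshold, *Skil* and *Smad7* remained, while 21.0% of all genes tested passed. The groups did not overlap for 6 of the 10 genes, against 49.2% of all genes. The median log2 fold change of the 10 genes was 0.65, beside 0.06 over all genes.

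**Figure D1:**
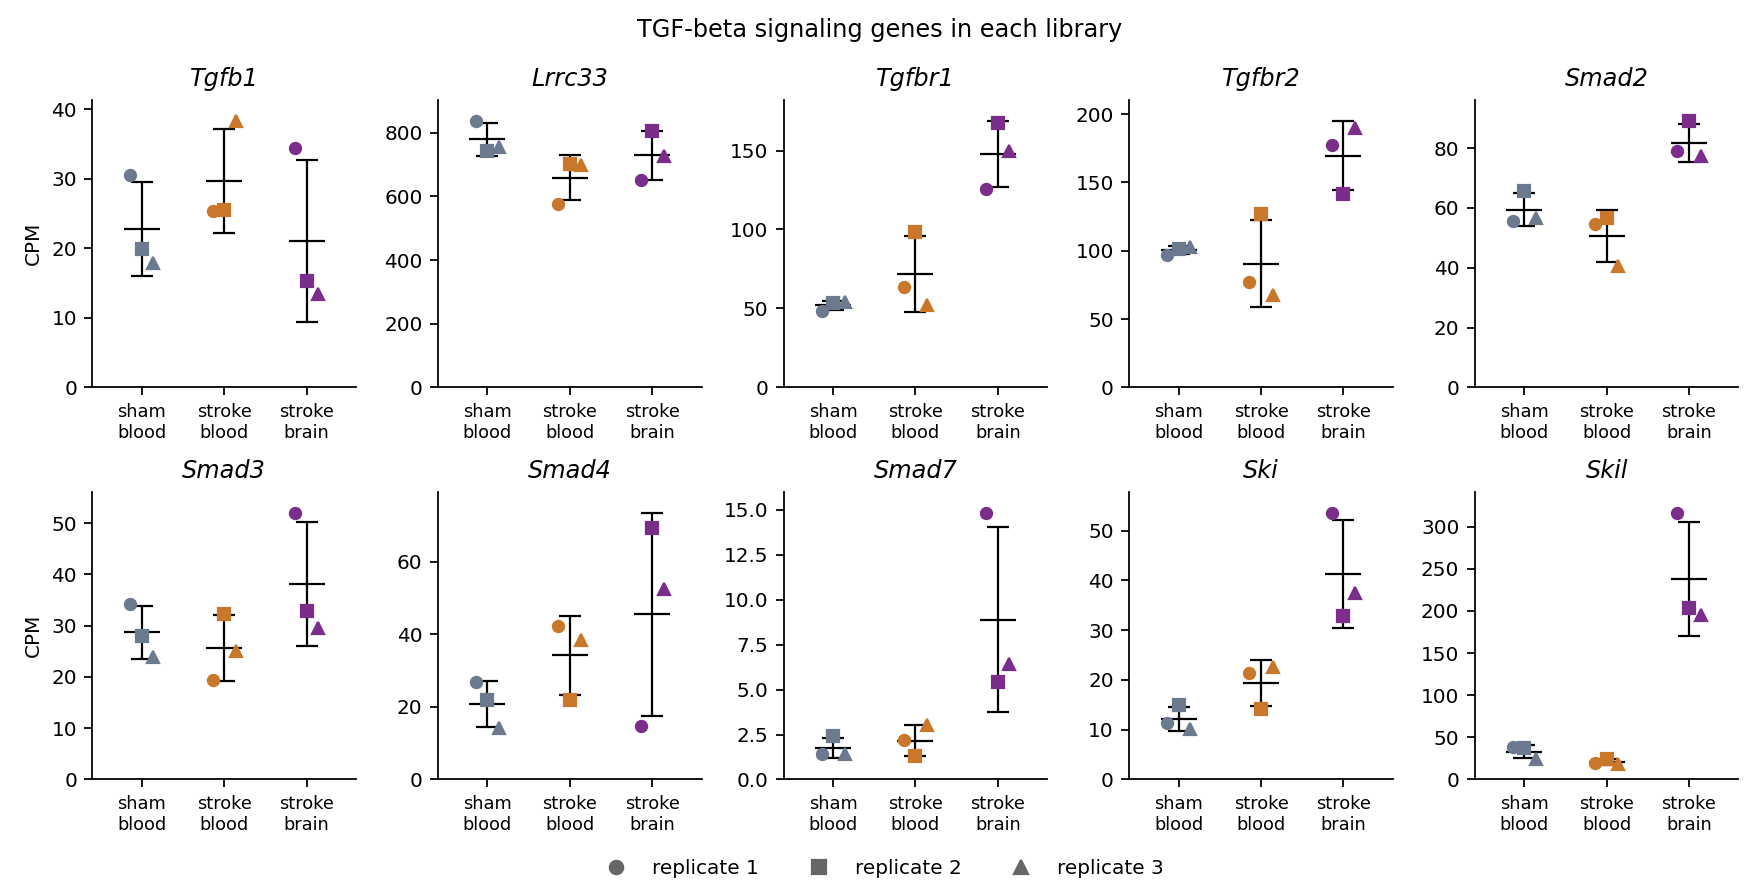
Level of each of the 10 TGF-beta signaling genes (CPM, y axis from 0) in the 9 libraries, by group. Points are libraries, with the shape giving the replicate number, the horizontal bar is the group mean and the whiskers are 1 SD (n = 3). Every brain library lay above every blood library for *Skil*, *Ski*, *Smad7*, *Tgfbr1*, *Tgfbr2* and *Smad2*.

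The inhibitor genes showed the 3 largest of these log2 fold changes. *Skil* encodes a nuclear corepressor of SMAD2 and SMAD3 and is itself a known target of TGF-beta (ENSMUSG00000027660, GRCm38 chr3:31095058-31122577, plus strand). Its level was 316, 204 and 195 CPM in the 3 brain libraries, 19.9, 24.9 and 17.9 CPM in stroke blood and 38.1, 37.1 and 24.2 CPM in sham blood. The lowest brain library was far above the highest blood library. The level was 10.2-fold higher in the brain than in stroke blood (log2 fold change 3.35, SE 0.24, edgeR adjusted p = 2.64e-05). *Skil* passed the test in all 6 fits that left out a library in turn, with log2 fold changes from 3.11 to 3.48.

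*Smad7*, which encodes the inhibitory SMAD that blocks the activated type I receptor, was the least abundant of the 10 genes (ENSMUSG00000025880, chr18:75367529-75395935, plus strand). It had 278, 123 and 139 counts in the brain libraries, 45, 28 and 56 counts in stroke blood and 29, 51 and 26 counts in sham blood. These corresponded to 14.8, 5.44 and 6.43 CPM in the brain, 2.17, 1.30 and 3.02 CPM in stroke blood and 1.41, 2.40 and 1.41 CPM in sham blood. Brain replicate 1 was the highest, and the brain did not overlap either blood group. Over stroke blood, the log2 fold change was 1.87 (SE 0.50, edgeR adjusted p = 0.0193). The call was lost without stroke blood replicate 1 (log2 fold change 1.83, edgeR adjusted p = 0.0739), stroke blood replicate 2 (1.55, 0.0707) or brain replicate 1 (1.31, 0.0583).

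*Ski* encodes the founding member of the same corepressor family as SKIL (ENSMUSG00000029050, chr4:155154075-155222592, minus strand). It stood at 53.5, 32.9 and 37.4 CPM in the brain, 21.3, 14.1 and 22.7 CPM in stroke blood and 11.3, 14.9 and 10.2 CPM in sham blood. The brain libraries were the 3 highest of the 9, again with replicate 1 on top. Over stroke blood it rose by 0.93 on the log2 scale (SE 0.26, edgeR adjusted p = 0.0245). The call was lost without stroke blood replicate 1 (0.96, edgeR adjusted p = 0.0765), stroke blood replicate 2 (0.69, 0.0830), brain replicate 1 (0.72, 0.0565) or brain replicate 3 (1.00, 0.0506).

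Both receptor genes rose in the brain. *Tgfbr1*, the type I receptor kinase that phosphorylates SMAD2 and SMAD3 (ENSMUSG00000007613, chr4:47353222-47414931, plus strand), was at 126, 167 and 150.0 CPM in the brain. In stroke blood it was at 63.8, 98.7 and 52.5 CPM, and in sham blood at 48.5, 53.3 and 53.9 CPM. Stroke blood replicate 2 was the blood library nearest to the brain. The log2 fold change was 0.89 over stroke blood (SE 0.23, edgeR adjusted p = 0.0182). The call was lost without stroke blood replicate 1 (0.79, edgeR adjusted p = 0.0761), stroke blood replicate 3 (0.70, 0.0613), brain replicate 2 (0.80, 0.0675) or brain replicate 3 (0.89, 0.0567).

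*Tgfbr2*, the type II receptor that binds the ligand first (ENSMUSG00000032440, chr9:116084293-116175360, minus strand), was at 177, 141 and 190.2 CPM in the brain. The values were 77.3, 127 and 67.4 CPM in stroke blood and 97.3, 101 and 103 CPM in sham blood. Stroke blood replicate 2 again came nearest to the brain, and the groups did not overlap. The rise over stroke blood was 0.75 on the log2 scale (SE 0.24, edgeR adjusted p = 0.0386). It was not called without stroke blood replicate 1 (0.63, edgeR adjusted p = 0.138), stroke blood replicate 3 (0.57, 0.124), brain replicate 1 (0.73, 0.0683) or brain replicate 3 (0.66, 0.126).

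Among the signal transducers, *Smad2* passed the test and *Smad3* and *Smad4* did not. *Smad2* encodes a receptor-activated SMAD (ENSMUSG00000024563, chr18:76241580-76305731, plus strand). Its level was 79.1, 89.1 and 77.2 CPM in the brain, 54.6, 56.8 and 40.5 CPM in stroke blood and 55.8, 65.8 and 56.7 CPM in sham blood. The brain libraries were the 3 highest, at a log2 fold change of 0.54 over stroke blood (SE 0.18, edgeR adjusted p = 0.0431). This call did not hold when any library was left out: without stroke blood replicates 1, 2 and 3 the log2 fold change was 0.57, 0.57 and 0.39 (edgeR adjusted p = 0.0952, 0.0588 and 0.127). Without brain replicates 1, 2 and 3 it was 0.58, 0.48 and 0.58 (edgeR adjusted p = 0.0525, 0.147 and 0.0945). It was also lost with no filter on low counts (edgeR adjusted p = 0.0750).

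*Smad3*, the other receptor-activated SMAD of the TGF-beta branch (ENSMUSG00000032402, chr9:63646767-63757994, minus strand), was at 52.0, 32.9 and 29.6 CPM in the brain. It was at 19.4, 32.3 and 25.1 CPM in stroke blood and 34.2, 28.0 and 23.9 CPM in sham blood. All 3 groups overlapped, and the log2 fold change of brain over stroke blood was 0.42 (95% interval -0.19 to 1.02, edgeR adjusted p = 0.269). *Smad4*, the common partner SMAD (ENSMUSG00000024515, chr18:73639009-73703780, minus strand), was at 14.7, 69.2 and 52.4 CPM in the brain. Its values were 42.1, 21.8 and 38.5 CPM in stroke blood and 26.8, 21.8 and 14.2 CPM in sham blood. Brain replicate 1 was the lowest of the brain libraries by far and the other two were the highest of all 9, so the interval was wide (log2 fold change 0.26, 95% interval -0.82 to 1.34, edgeR adjusted p = 0.713).

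No change was detected for the ligand or its anchor. *Tgfb1* (ENSMUSG00000002603, chr7:25687002-25705077, plus strand) was at 34.5, 15.4 and 13.5 CPM in the brain, 25.4, 25.5 and 38.3 CPM in stroke blood and 30.5, 19.9 and 17.9 CPM in sham blood. Brain replicate 1 lay among the stroke blood libraries and brain replicates 2 and 3 lay below them. The log2 fold change over stroke blood was -0.66 (95% interval -1.47 to 0.15, edgeR adjusted p = 0.195), and without brain replicate 1 it was -1.19 and passed (edgeR adjusted p = 0.0101).

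*Lrrc33*, whose product tethers latent TGF-beta1 to the macrophage surface (ENSMUSG00000052384, chr16:32142785-32165594, minus strand), was at 653, 807 and 728 CPM in the brain. It was at 576, 703 and 698 CPM in stroke blood and 837, 744 and 756 CPM in sham blood. The brain overlapped both blood groups. The log2 fold change over stroke blood was -0.01 (95% interval -0.37 to 0.35, edgeR adjusted p = 0.970). Scaled by library size without TMM it was 0.15, while the median over all genes moved from 0.06 to 0.22.

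Per kilobase of exon, *Lrrc33* was the most abundant of the 10 genes in each group, with mean levels of 187, 158 and 175 CPM per kb in sham blood, stroke blood and brain. *Smad7* was the least abundant in each group, at 0.384, 0.479 and 1.97 CPM per kb. *Skil* moved from the third lowest mean in sham blood (3.42 CPM per kb) and the second lowest in stroke blood (2.16) to the second highest in the brain (24.6). In the brain, *Skil* (SD 6.99), *Tgfbr1* (22.6, SD 3.20) and *Tgfbr2* (20.7, SD 3.10) did not differ beyond their spread.

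**Figure D2:**
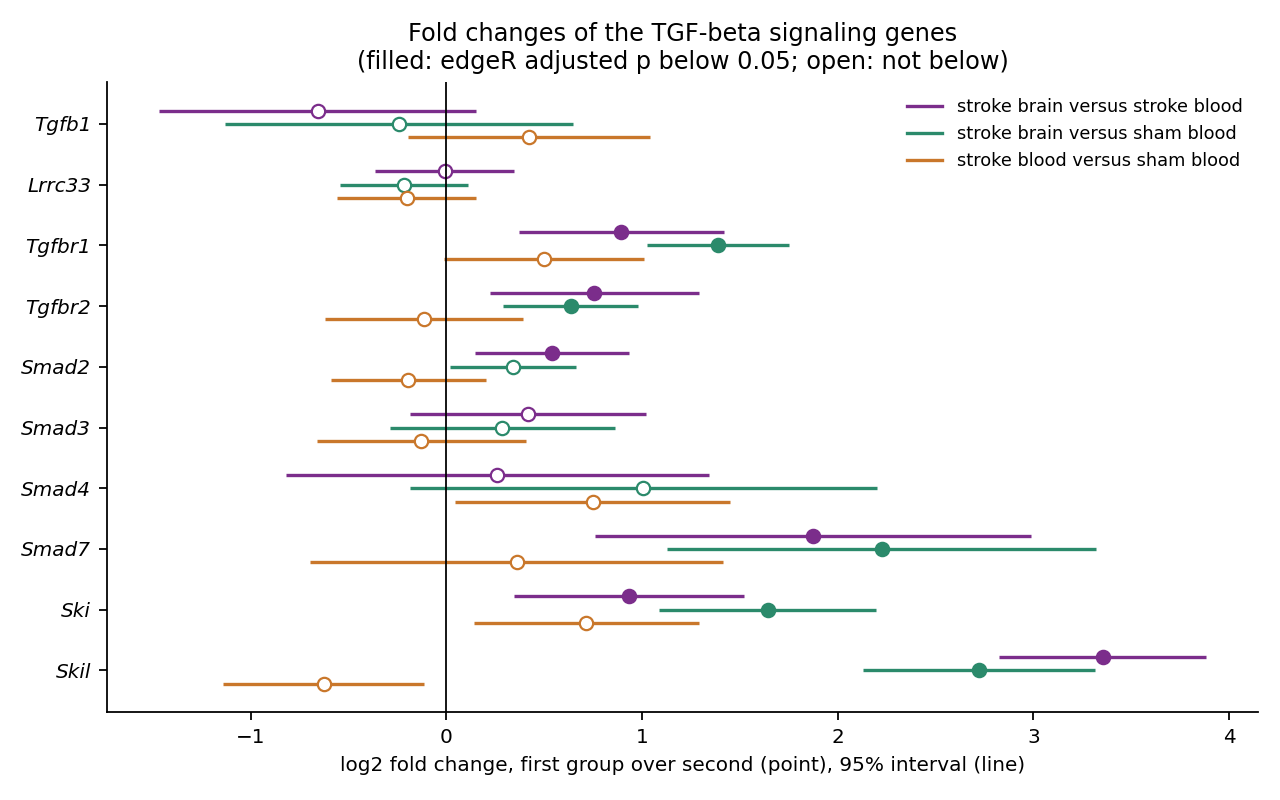
Log2 fold change (x axis) of the 10 TGF-beta signaling genes in the 3 comparisons, with 95% intervals as lines. Filled points have an edgeR adjusted p below 0.05 and open points do not. *Skil* lay at 3.35 and 2.72 in brain versus stroke blood and versus sham blood, and no point of stroke blood versus sham blood was filled.

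The brain was also set against sham blood. This comparison shares its brain libraries with the one above and is no independent repeat of it. *Skil*, *Smad7*, *Ski*, *Tgfbr1* and *Tgfbr2* were higher, 5 of the 10, with 12.1% of the 13020 genes tested called higher. The groups did not overlap for 6 of the 10, against 41.7% of all genes, and the median log2 fold change was 0.82, beside 0.01 over all genes. The log2 fold change was 2.72 for *Skil* (SE 0.26, edgeR adjusted p = 0.000812), 1.64 for *Ski* (SE 0.24, edgeR adjusted p = 0.00454) and 1.39 for *Tgfbr1* (SE 0.16, edgeR adjusted p = 0.00170). These 3 passed in all 6 fits that left out a library.

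*Smad7* stood at a log2 fold change of 2.22 over sham blood (SE 0.47, edgeR adjusted p = 0.0166), and its call was lost without sham blood replicate 3 (2.10, edgeR adjusted p = 0.0647). *Tgfbr2* stood at 0.63 (SE 0.15, edgeR adjusted p = 0.0228). It was not called without sham blood replicate 1 (0.62, edgeR adjusted p = 0.0527), sham blood replicate 2 (0.61, 0.0776), sham blood replicate 3 (0.65, 0.0615) or brain replicate 3 (0.53, 0.0892). *Smad2* did not pass against sham blood (0.34, edgeR adjusted p = 0.129), although its groups did not overlap. *Smad4* was at 1.01 (SE 0.51, edgeR adjusted p = 0.209), and without brain replicate 1 at 1.43, which passed (edgeR adjusted p = 0.0191). The values were 0.28 for *Smad3*, -0.24 for *Tgfb1* and -0.22 for *Lrrc33*, and none passed.

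Stroke blood and sham blood address whether the genes differ in the circulation after stroke. No difference was detected for any of the 10 genes with edgeR or DESeq2, with edgeR adjusted p from 0.331 to 0.847. Only 1 of the 12664 genes tested was called, *Serpinb10* (0.00790%), while 1581 had an unadjusted p below 0.05. Among the 10, unadjusted p was below 0.05 for *Smad4* (log2 fold change 0.75, 95% interval 0.05 to 1.45), *Ski* (0.72, 0.14 to 1.29) and *Skil* (-0.63, -1.14 to -0.11). For *Lrrc33* the log2 fold change was -0.20 (95% interval -0.56 to 0.15). The median log2 fold change of the 10 genes was 0.12, beside -0.03 over all genes.

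Another 68 genes of the pathway, grouped by role, gave a wider view. In brain versus stroke blood, 55 of them were tested, of which 20 were higher and 5 lower, and 22 of these 25 also had an absolute log2 fold change above 1. Over all genes tested, 17.5% were called higher, 13.1% lower and 21.0% passed with that fold change. The count of 25 was 16 without stroke blood replicate 1 and 16 without stroke blood replicate 3. The median log2 fold change of the 55 was 0.30, beside 0.06 over all genes. *Tgfb3*, *Lrrc32*, *Bmpr1a*, *Pmepa1* and *Cdkn2b* are among the 55 but did not pass the filter on low counts between stroke and sham blood. They were tested only with brain libraries included, so they tilt the counts and medians of their lists toward higher in the brain. In stroke versus sham blood, 0 of 50 tested were called by edgeR, and 2 by DESeq2. Against sham blood, 14 were higher in the brain and 2 lower, of 55 tested, while 12.1% of all genes tested were called higher and 7.68% lower. DESeq2 called 27 of them in that comparison in place of 16.

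**Figure D3:**
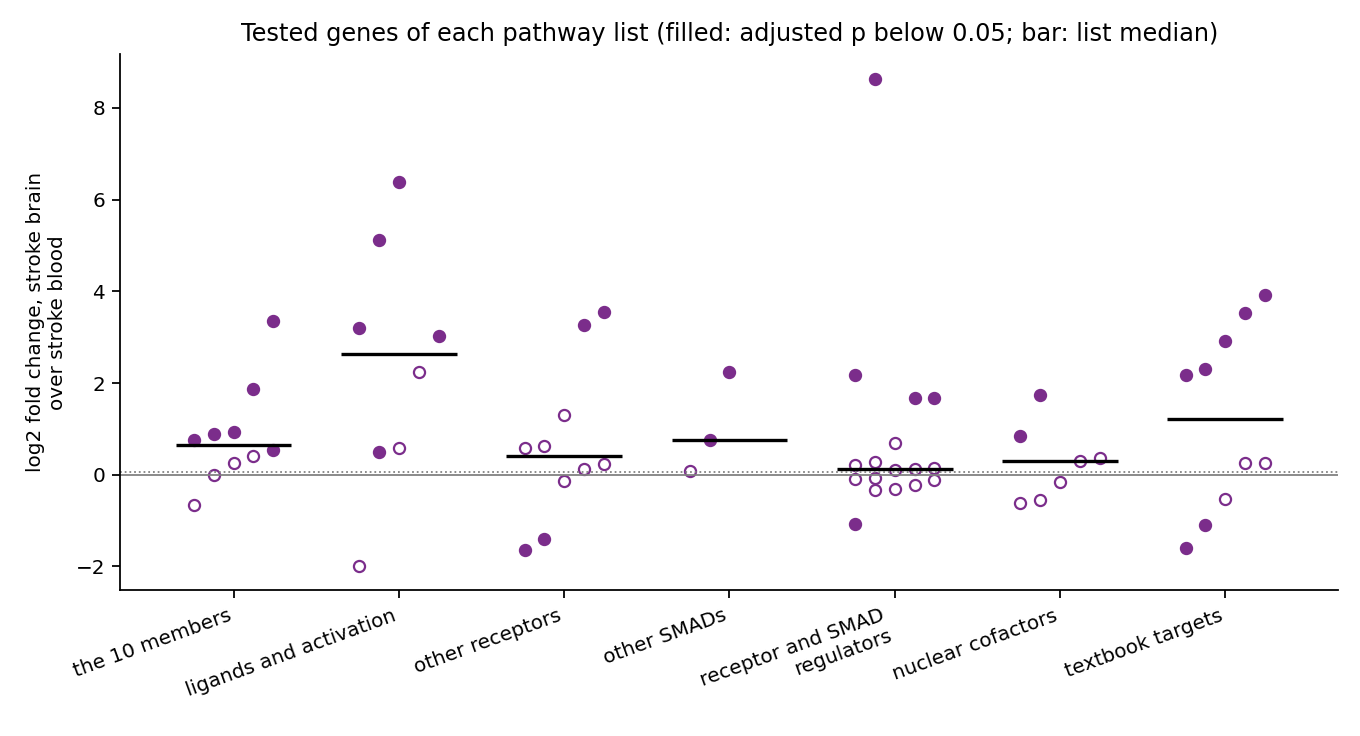
Log2 fold change of brain over stroke blood (y axis) for each tested gene of the 10 members and the 6 other pathway lists. Filled points have an edgeR adjusted p below 0.05, the bar is the median of the list, and the dotted line is the median of all genes (0.06). The bar of the ligand and activation list lay at 2.64 and that of the receptor and SMAD regulators at 0.13. The ligand and activation list includes *Tgfb3* and *Lrrc32*, which did not pass the filter on low counts between the blood groups.

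Of 13 other ligands and activators of latent TGF-beta, 8 were tested, 5 were higher and 0 lower, with a median log2 fold change of 2.64. *Tgfb3* and *Lrrc32* did not pass the filter on low counts between the blood groups and were tested only with brain libraries included. They therefore tilt this list toward higher in the brain. Among all genes tested, 17.5% were called higher and 13.1% lower, with a median of 0.06. *Mmp14*, a membrane metalloproteinase that can free latent TGF-beta, was at 92.0, 145 and 117 CPM in the brain and between 0.557 and 1.94 CPM in stroke blood (log2 fold change 6.39, SE 0.41, edgeR adjusted p = 2e-05). *Thbs1*, which encodes the activator thrombospondin-1, was at 3299, 1933 and 1486 CPM in the brain, 51.4, 74.2 and 47.8 CPM in stroke blood and 473, 326 and 220.4 CPM in sham blood (log2 fold change over stroke blood 5.12, SE 0.34). Platelets are a rich source of thrombospondin-1, and platelet markers summed to between 3.36 and 5.64 CPM in the brain and between 242 and 332 CPM in stroke blood. In sham blood they summed to 14.4, 401 and 565 CPM, and the library with the lowest of these sums had the highest *Thbs1* of the sham libraries. The part of platelets in *Thbs1* was not tested. *Tgfb3*, a ligand, was low throughout, at 2.56, 1.24 and 1.30 CPM in the brain and at most 0.386 CPM in stroke blood (log2 fold change 3.19, SE 0.92).

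Of 12 other receptors of the superfamily, 10 were tested, 2 were higher and 2 lower, with a median of 0.41. These counts are near the shares over all genes, 17.5% higher and 13.1% lower. *Bambi*, a decoy receptor that lacks the kinase domain, was at 96.3, 65.0 and 45.2 CPM in the brain and between 3.89 and 8.25 CPM in stroke blood (log2 fold change 3.27, SE 0.35, edgeR adjusted p = 0.000241). *Bmpr1a*, a type I receptor for bone morphogenetic proteins (BMPs), stayed at or below 1.39 CPM in every library (log2 fold change 3.56, SE 1.06). *Bmpr2*, the type II BMP receptor, was lower than in stroke blood by 1.40 on the log2 scale (SE 0.32). *Acvr1b*, an activin receptor, was lower by 1.65 (SE 0.55, edgeR adjusted p = 0.0487), with groups that overlapped. Against sham blood neither was called, at -0.75 for *Bmpr2* (edgeR adjusted p = 0.125) and -0.94 for *Acvr1b* (0.226). In that comparison 2 of the 10 tested receptors were higher and 0 lower. Of 4 other SMAD genes, 3 were tested, 2 were higher and 0 lower, with a median of 0.75, beside the same shares over all genes. The 2 were the inhibitory *Smad6* (2.25, SE 0.53) and the BMP-branch *Smad1* (0.75, SE 0.20). Against sham blood 0 of the 3 were called, at 2.21 for *Smad6* (edgeR adjusted p = 0.0660) and 0.54 for *Smad1* (0.0517).

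Among 17 regulators of receptors and SMADs, all tested, 4 were higher and 1 lower, with a median of 0.13, again near the 17.5% and 13.1% over all genes. *Pmepa1*, a TGF-beta target whose product sequesters SMAD2 and SMAD3, was at 40.9, 37.6 and 40.0 CPM in the brain and at 0, 0 and 0.270 CPM in stroke blood (log2 fold change 8.64, SE 0.64, edgeR adjusted p = 3.25e-05). Sham blood libraries had at most 3 counts of it, which made the brain at least 264-fold higher, with 3 counts taken as the floor in each library. *Smurf1*, a ubiquitin ligase that acts on receptors and SMADs, rose by 2.17 (SE 0.34), and *Ldlrad4*, an inhibitor of SMAD activation, rose by 1.67 (SE 0.52). Against sham blood *Ldlrad4* was called (1.48, edgeR adjusted p = 0.0150) and *Smurf1* was not (1.91, 0.0720). *Tab2*, an adaptor of the kinase TAK1, was lower than in stroke blood by 1.07 on the log2 scale (SE 0.28), with groups that overlapped. Its mean was 36.7 CPM in the brain, 68.8 CPM in stroke blood and 36.4 CPM in sham blood. Brain versus sham blood was not called for *Tab2* (-0.11, edgeR adjusted p = 0.777). Of 8 nuclear cofactors, 7 were tested, 2 were higher and 0 lower, with a median of 0.30, beside 17.5% and 13.1% over all genes. The 2 were the corepressor genes *Tgif1* (1.74, SE 0.26) and *Ncor1* (0.85, SE 0.25). Against sham blood *Tgif1* was called (1.62, edgeR adjusted p = 0.00853) and *Ncor1* was not (0.90, 0.0768).

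Of 14 textbook target genes, 10 were tested, 5 were higher and 2 lower, with a median of 1.22. Over all genes tested, 17.5% were called higher and 13.1% lower, with a median of 0.06. *Bhlhe40*, a transcriptional repressor, was at 573, 302 and 267 CPM in the brain and 36.4, 35.9 and 16.9 CPM in stroke blood (log2 fold change 3.53, SE 0.37). *Cdkn1a*, the cell cycle inhibitor p21, was at 629, 406 and 348 CPM in the brain and 54.3, 47.8 and 60.8 CPM in stroke blood (2.92, SE 0.24). *Cdkn2b*, another cell cycle inhibitor, was higher in the brain by at least 6.37-fold over a floor of 3 counts per library, where it reached at most 1.30 CPM. *Fn1*, which encodes fibronectin, fell by 1.59 on the log2 scale (SE 0.29) from 2092, 3012 and 2194 CPM in stroke blood to 1367, 624 and 709 CPM in the brain. *Id1*, a target of the BMP branch, fell by 1.10 (SE 0.30). The other *Id* genes of the list did not fall: *Id3* rose by 2.30 (SE 0.37) and *Id2* was not called (0.25, SE 0.21). Against sham blood *Id3* was not called (1.68, edgeR adjusted p = 0.0518). *Col1a1*, the collagen target, did not pass the filter on low counts and was uneven, at 224, 0.884 and 0 CPM in the brain libraries and at most 0.0470 CPM in blood. Exons of *Tgfb3*, *Thbs1*, *Bmpr1a*, *Ldlrad4*, *Ncor1*, *Cdkn1a*, *Bhlhe40* and *Fn1* overlap a gene on the other strand and the strand setting of the counting is not stated, so their counts are uncertain.

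Other markers moved with the brain group. Microglia markers summed to 1299, 1999 and 3709 CPM in the 3 brain libraries, and to between 135 and 205 CPM in the 6 blood libraries. All 8 of them were higher in the brain than in stroke blood, and *Sall1*, a defining microglial transcription factor, was at 0 in every blood library and at 11.9 CPM on average in the brain. Of the brain libraries, replicate 1 had the lowest microglial sum. The same library had the lowest T and NK cell sum (346 CPM) and the lowest immediate early and heat shock sum (7722 CPM). Its neutrophil sum (894 CPM) and dendritic cell sum (694 CPM) were the highest. Among the brain libraries it was the lowest for *Tgfbr1*, *Smad4* and *Lrrc33* and the highest for *Skil*, *Smad7*, *Ski*, *Smad3* and *Tgfb1*. For *Tgfbr2* and *Smad2* it lay between the others. The part of microglia in the results above was not tested.

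Immediate early and heat shock genes, which respond to tissue dissociation, summed to 7722, 10842 and 11464 CPM in the brain, between 2142 and 2704 CPM in stroke blood and between 1389 and 3518 CPM in sham blood. Of these 9 genes, 7 were higher in the brain than in stroke blood. Neutrophil markers summed to between 387 and 894 CPM in the brain, 16.6 and 76.9 CPM in stroke blood and 93.4 and 979 CPM in sham blood, and 6 of 6 tested were higher in the brain than in stroke blood, although *Ly6g* itself had at most 14 counts in any library. Monocyte markers summed to between 50220 and 52229 CPM in the brain and between 88233 and 124146 CPM in blood, with 2 higher and 4 lower of 8. *Lyz2* alone averaged 40891 CPM in the brain, 92238 CPM in stroke blood and 96454 CPM in sham blood. These sums therefore mostly follow *Lyz2* and do not describe the list as a set. Platelet markers were lower in the brain for 7 of 7 and erythroid markers for 5 of 5. Of the remaining lists, 4 of 5 dendritic cell markers, 3 of 5 border-associated macrophage markers, 2 of 8 T and NK cell markers and 1 of 4 neural and vascular markers were higher, 1 border-associated and 1 neural marker were lower, and 0 of 4 B cell markers were called by edgeR. The part of these cells and of dissociation in the TGF-beta genes was not tested.

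**Figure D4:**
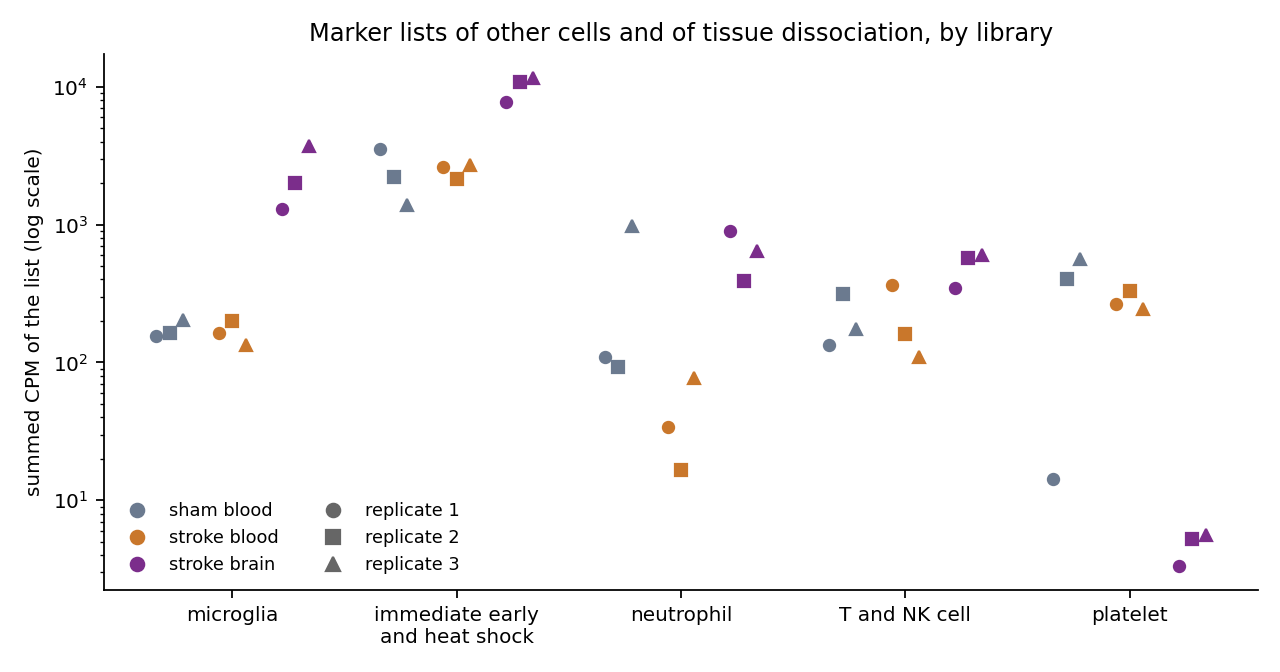
Summed CPM (log scale, y axis) of marker lists for microglia, tissue dissociation, neutrophils, T and NK cells and platelets in each library. Points are libraries, colored by group and shaped by replicate number. The microglial sum was between 1299 and 3709 CPM in the brain and at most 205 CPM in blood.

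Brain replicate 1 stood apart within its group for several of the 10 genes. Relative to the mean of the other brain libraries it was 2.50 times as high for *Smad7*, 2.39 for *Tgfb1*, 1.66 for *Smad3*, 1.59 for *Skil* and 1.52 for *Ski*, but 0.242 for *Smad4*. *Tgfbr1*, *Tgfbr2*, *Smad2* and *Lrrc33* lay between 0.792 and 1.07. It was also the library that held nearly all *Col1a1* counts.

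The genes whose levels followed *Skil*, *Smad7* and *Ski* most closely across the 9 libraries were picked by Pearson's r of log2(CPM + 1) over 7684 genes. The libraries fall into brain and blood, so r mostly describes that separation and is given without a test. For *Skil* they were *Dtx4* (r = 0.99) and *Cd83* (r = 0.99), and 616 genes had r above 0.9. *Smad7* was followed most closely by *Tnfrsf11a* (r = 0.99) and *Klf9* (r = 0.98), and *Ski* by *Irs2* (r = 0.98) and *Dcakd* (r = 0.97).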

How the data were processed

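RNA of sorted monocytes/macrophages was sequenced from 3 stroke brain, 3 stroke blood and 3 sham blood libraries, grouped by the tissue and surgery in their labels. The authors made cDNA with SMART-Seq HT, sequenced paired-end, aligned reads to GRCm38 by HISAT2 and used HTSeq to count them per gene, per the paper and the submitters' processing notes. The deposited values are raw counts per gene, without normalization. Versions, annotation release and strand setting are not given in the sources used here. Libraries were amplified by PCR, so a floor of 3 counts reflects counting error alone.

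Each pair of groups was fitted on its 6 libraries in R 4.3.3 by the quasi-likelihood test of edgeR 4.0.16 (TMM, default filter on low counts, Benjamini-Hochberg over all genes tested). The SE is the size of the log2 fold change over the square root of F. CPM uses library totals, and levels per kilobase use GENCODE M21 exons. DESeq2 1.42.0 was an alternative, beside other normalizations, filters, thresholds, a 9-library fit, a replicate block and each library left out. The scripts were tested on simulated data. Counts of same-group libraries varied beyond sampling noise, with chi-square over its degrees of freedom between 26.2 and 152. An exact two-sided permutation test of 3 against 3 cannot go below p = 0.1 and was not used.

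The 10 genes and the lists were chosen with earlier results of these data known. All 10 genes are named, as are up to 3 genes called in each direction per other pathway list with the largest fold changes between brain and stroke blood, and the 2 genes most like each of the 3 members that changed most. *Serpinb10*, *Col1a1*, *Sall1*, *Ly6g*, *Lyz2*, *Id2* and *Id3* were named after their values were seen. Upstream sequences are from RefSeq, GRCm38.p6, and 3 motifs were searched. Python 3.11.15 with numpy 2.4.6, pandas 2.3.3 and matplotlib 3.10.9 produced the tables and plots.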

Additional observations from a re-analysis of the deposited data

How the results depend on the processing

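The count of the 10 genes called in brain versus stroke blood was 6 and ranged from 1 (without stroke blood replicate 1) to 4 when a library was left out. It was 1 at an adjusted p below 0.01 and 2 with an absolute log2 fold change above 1 as well. DESeq2, RLE, library size only, a mean of at least 50 counts and the fit of all 9 libraries each gave 6, and no filter on low counts gave 5. For the other pathway genes the count was 25, from 16 to 25 with a library left out, and 13 at an adjusted p below 0.01. Against sham blood the count of the 10 was 5, from 3 to 6 with a library left out, and 3 at an adjusted p below 0.01, and the other pathway count was 16, but 27 with DESeq2. In stroke versus sham blood the other pathway count of 0 became 2 with DESeq2, 2 with no filter and 0 to 1 with a library left out. The cause was not tested.

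Genes that were not called changed sign in some fits. *Lrrc33* in brain versus stroke blood was 0.15 with library size only and -0.13 to 0.078 with a library left out, and *Smad4* was -0.17 to 0.69. In stroke versus sham blood, *Tgfbr2* was -0.45 to 0.037 and *Smad3* -0.34 to 0.028, and *Tgfb1* in brain versus sham blood was -0.77 to 0.045. Scaling by library size alone moved the median of all genes by 0.15 in brain versus stroke blood and 0.12 in brain versus sham blood. The call of *Tgfbr2* in brain versus sham blood was lost in the fit of all 9 libraries (edgeR adjusted p = 0.0545).

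Deviations of same-numbered libraries correlated at -0.06, 0.09 and -0.08 between brain and stroke blood, and those of differently numbered libraries at -0.12 to 0.14. The same-numbered values lay within that range, so this check cannot settle whether replicate numbers pair the libraries. With the replicate block, 5 of the 10 were called in brain versus stroke blood, since *Smad2* was lost (edgeR adjusted p = 0.0618), 5 in brain versus sham blood and 0 in stroke versus sham blood.

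With 3 libraries per group, intervals of the log2 fold changes are wide for *Smad4*, *Smad7* and *Tgfb1*, and *Smad7* rests on 26 to 56 counts per blood library.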
